A study of Mus musculus with 2 samples.

Results

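Transcripts of 9 chemokine genes, 5 ligands and 4 receptors, were followed across the immune cell clusters of mouse kidneys with nephrotoxic serum nephritis (NTN). The genes were given as a list, and all 9 were found among the 20299 genes of the deposited matrix. The ligands were *Ccl3*, *Ccl4*, *Ccl5*, *Ccl1*, and *Xcl1*, and the receptors were *Xcr1*, *Ccr1*, *Ccr4*, and *Ccr8*. In NTN, sheep serum raised against the glomerulus is injected into mice primed with sheep IgG in Freund's complete adjuvant, and the glomeruli are acutely injured. One library came from WT mice and the other from *Vsir-/-* mice, which lack VISTA, an inhibitory receptor of macrophages and other immune cells. All mice were C57BL/6, 8 weeks old, and had NTN. The number of mice in a library is not given in the sources used here. With 1 library per genotype there was no biological replicate, so no test between genotypes was made, and every interval (95%) covers counting error alone. Clusters carry the names the authors gave them, in which EM-like means effector memory-like, R1 the macrophages resident in the kidney, R2 the macrophages that infiltrate it, and pDC the plasmacytoid dendritic cells.

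Chemokines are small secreted proteins that guide leukocytes through receptors coupled to G proteins. CCL3 and CCL4 are inflammatory chemokines released by activated lymphocytes and myeloid cells, and CCL5 is stored and released by cytotoxic lymphocytes. CCL3 and CCL5 act on CCR1, CCL1 acts on CCR8, and XCL1 acts on XCR1, which marks the conventional dendritic cells that cross-present antigen (cDC1). CCR4 binds other chemokines, CCL17 and CCL22, and is known from regulatory, Th2, and Th17 cells.

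In the WT library 5470 cells gave 32799550 UMIs (unique molecular identifiers, each standing for 1 captured transcript), at a median of 4726.5 per cell. In the *Vsir-/-* library 1844 cells gave 18601189 UMIs, at a median of 6673, and 5 cell barcodes occurred in both. *Vsir* itself had 4278 UMIs in the WT library and 8 in the *Vsir-/-* library. The libraries differed in more than genotype. The label of the WT library names a sort for CD45+ cells, whereas that of the *Vsir-/-* library names every kind of kidney cell, and the methods of the study name a CD45+ sort for both. *Ptprc*, which encodes CD45, was detected in 94.2% (WT) and 73.6% (*Vsir-/-*) of cells, and a list of kidney tubule genes summed to 158 and 9675 CPM (UMIs per 1000000 UMIs of the same cells). In the B cluster *Ptprc* was detected in 86.1% (WT) and 56.8% (*Vsir-/-*) of cells. A list of B cell genes summed there to 8725 and 3206 CPM, and the tubule list to 42.2 and 9578 CPM. In 2 other clusters most *Vsir-/-* cells lacked T cell transcripts, unlike the WT cells. A T cell receptor or CD3 transcript was found in 33.2% of the non-EM-like CD4+ T cells and 34.9% of the proliferating cells of the *Vsir-/-* library, against 100% and 96.6% in the WT library. The NKT cluster held 94 WT cells and 0 *Vsir-/-* cells, and the basophil cluster held 25 and 2. A cluster's summed value cannot tell fewer expressing cells from less RNA per cell, and sort and genotype cannot be told apart.

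The sequences upstream of the start were read for the 7 members with an entry in the RefSeq promoter table (GRCm38.p6). Those of *Ccl3*, *Xcl1*, and *Ccl1* are shown because these ligands had unlike patterns: *Ccl3* in myeloid and NK cells, *Xcl1* in lymphoid cells, and *Ccl1* in very few cells. Each run holds the 250 bases before the start, 5′ to 3′ on the strand of the gene, at chr11:83649379-83649628 (minus strand) for *Ccl3*, chr1:164935523-164935772 (minus strand) for *Xcl1*, and chr11:82179813-82180062 (minus strand) for *Ccl1*.
Ccl3: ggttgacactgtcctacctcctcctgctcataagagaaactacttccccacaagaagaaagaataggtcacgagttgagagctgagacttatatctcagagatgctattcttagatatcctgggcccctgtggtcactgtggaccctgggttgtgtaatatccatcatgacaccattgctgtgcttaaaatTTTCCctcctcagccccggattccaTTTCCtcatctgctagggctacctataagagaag
Xcl1: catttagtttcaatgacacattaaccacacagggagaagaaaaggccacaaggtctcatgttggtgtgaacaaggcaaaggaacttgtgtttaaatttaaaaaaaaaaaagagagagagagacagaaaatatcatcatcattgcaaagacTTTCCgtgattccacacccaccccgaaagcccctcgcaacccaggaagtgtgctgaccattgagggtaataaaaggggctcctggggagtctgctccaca
Ccl1: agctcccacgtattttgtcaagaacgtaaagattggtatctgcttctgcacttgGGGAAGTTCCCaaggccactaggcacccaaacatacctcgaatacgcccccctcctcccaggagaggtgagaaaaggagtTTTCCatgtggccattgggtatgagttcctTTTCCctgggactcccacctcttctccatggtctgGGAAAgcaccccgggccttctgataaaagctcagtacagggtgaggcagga
Capitals mark matches, on either strand and with overlaps joined, to GGAAA, the core of sites for NFAT, to the κB pattern of 3 G, 5 bases of any kind, and 2 C, or to the AP-1 pattern TGANTCA. *Ccl3* held 2 NFAT cores, *Xcl1* held 1, and *Ccl1* held 3 besides 2 κB matches. The AP-1 pattern was in 0 of these 3 windows. Of all 32851 windows of this length, 55.6% held an NFAT core, 45.8% a κB match, and 6.75% an AP-1 match, so the letters are a description only.

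*Ccl3* and *Ccl4* were carried by basophils, NK cells, and kidney-resident R1 macrophages. The level of *Ccl3* in basophils was 16213 CPM (15565 to 16881) in the WT library, from 2358 UMIs in 25 cells, and 9279 CPM (7480.1 to 11380) in the *Vsir-/-* library, where 1 of the 2 cells held 83 of the 92 UMIs. *Ccl4* stood at 16021 and 8371 CPM in the same cells. All 27 basophils had both transcripts, which no other cluster showed. NK cells followed with 626 CPM of *Ccl3* in the WT library and 1345 CPM in the *Vsir-/-* library, and R1 macrophages had 626 and 661 CPM. In the WT library the intervals of NK cells and R1 macrophages overlapped, whereas in the *Vsir-/-* library NK cells stood above.

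**Figure D1:**
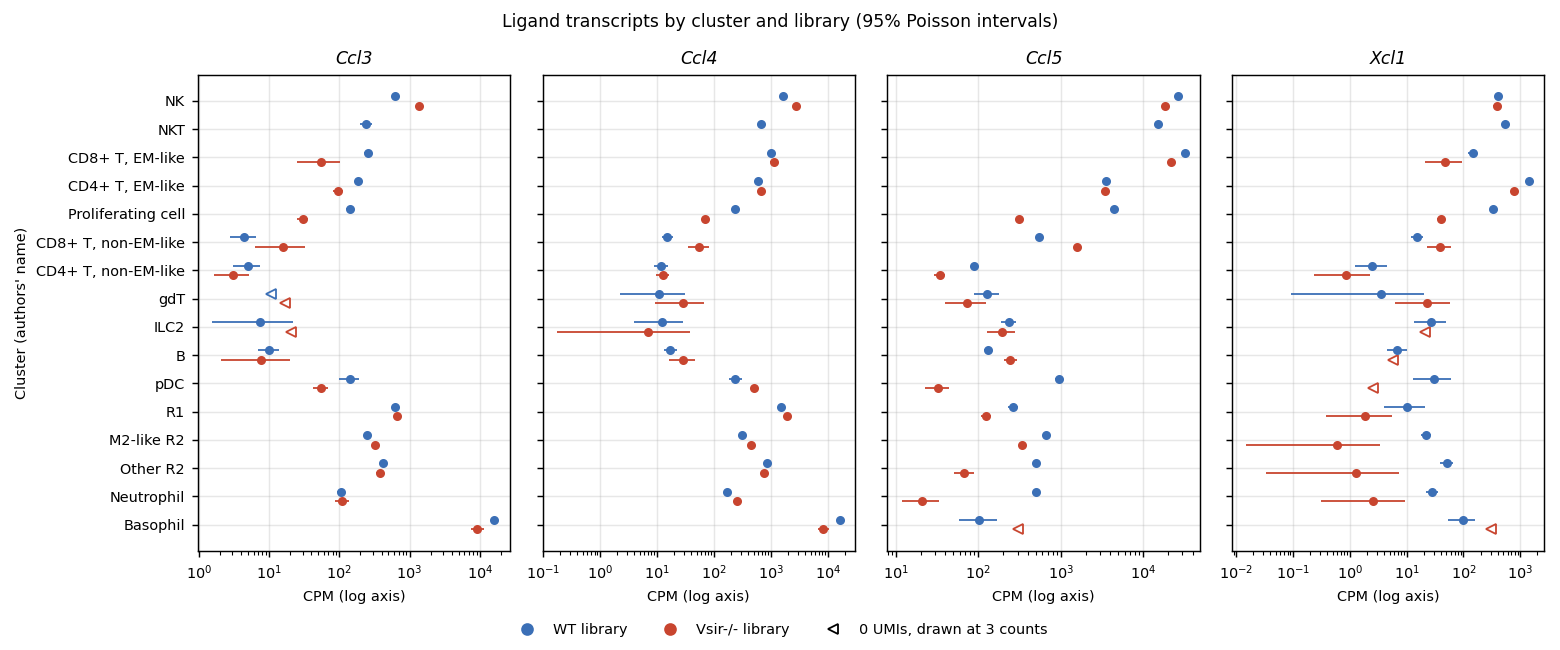
Level of *Ccl3*, *Ccl4*, *Ccl5*, and *Xcl1* (CPM, log axis) in each cluster of the WT and the *Vsir-/-* library, with 95% Poisson intervals; open triangles mark clusters with 0 UMIs, drawn at the level of 3 counts. Basophils lead for *Ccl3* and *Ccl4*, EM-like CD8+ T cells and NK cells for *Ccl5*, and the EM-like CD4+ T cluster for *Xcl1*.

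In NK cells *Ccl3* was 2.15-fold higher in the *Vsir-/-* library (1.97 to 2.34), which is 1.10 on the log2 scale (0.98 to 1.23). *Ccl4* in NK cells was 1612 CPM in the WT and 2807 CPM in the *Vsir-/-* library, 1.74-fold higher (1.64 to 1.85). *Ccl3* was detected in 387 of 594 (65.2%) and 48 of 67 (71.6%) NK cells, or in 29.8% and 41.8% after each cell was thinned to 1000 UMIs, and the UMIs per cell were 3.96 and 10.2. Of the 4 members with at least 20 UMIs in NK cells, *Ccl3* alone passed 2-fold, upward, where 9.07% of all 8963 genes with at least 20 UMIs passed upward. Thinned to equal depth, *Ccl3* stayed under that limit (log2 0.95), and with every cell weighted equally *Ccl4* passed it as well (1.003). Stress genes of tissue dissociation, such as *Fos* and *Jun*, were higher too. That list summed to 5547 CPM in the WT and 9180 CPM in the *Vsir-/-* NK cells, and its part in the result was not tested.

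The pair parted in the EM-like T cells. In EM-like CD8+ T cells *Ccl3* was 256 CPM in the WT library (211 UMIs) and 54.2 CPM in the *Vsir-/-* library (9 UMIs), a log2 ratio of -2.24 (-3.39 to -1.29), while *Ccl4* stood at 986 and 1120.2 CPM, a ratio whose interval (0.963 to 1.33-fold) includes 1. *Ccl3* thus made up 20.6% (18.2 to 23.2) of the summed *Ccl3* and *Ccl4* UMIs in WT and 4.62% (2.13 to 8.58) in *Vsir-/-* EM-like CD8+ T cells. In the EM-like CD4+ T cluster the share was 23.8% and 12.2%, and in the pDC cluster it was 37.0% and 9.54%. A single WT cell of the pDC cluster held 24 of its 37 *Ccl3* UMIs, and without the highest cell of each library the shares were 20.3% and 8.27%, with intervals that do not overlap. In non-EM-like CD8+ T cells the shares were 22.2% and 22.6%, the latter from 7 *Ccl3* UMIs (9.59 to 41.1). Without the highest cell of each library they were 21.5% and 8%, with intervals that overlap. The dissociation list was higher in the *Vsir-/-* library in these clusters as well, at 5516 (WT) against 9058 CPM for EM-like CD8+ T cells. A list of NK cell genes was lower in those cells, at 2098 CPM (WT) and 404 CPM (*Vsir-/-*). The part of either list in the result was not tested. NK cells had 28.0% and 32.4% of the pair as *Ccl3*, R1 macrophages 29.2% and 25.6%, M2-like R2 macrophages 44.2% and 41.8%, and WT basophils 50.3%. The WT share was therefore lower in cytotoxic lymphocytes and R1 macrophages than in M2-like R2 macrophages and basophils. In the RefSeq annotation of GRCm38.p6 the span of *Ccl4* overlaps *Ccl3*, and how reads over both were assigned is not given in the sources used here.

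In R1 macrophages the pair tended to occur in the same cells. *Ccl4* was found in 90.0% of *Vsir-/-* R1 macrophages with *Ccl3* (99 of 110) and in 33.9% of those without (43 of 127). The WT values were 74.6% and 49.0%. In thinned cells the *Vsir-/-* shares were 73.7% and 34.2%, and the WT shares were 64.3% and 32.1%. In B cells the counts were too small to tell. *Ccl4* was found in 0 of 26 WT B cells with *Ccl3* and 4.67% of the others. In *Vsir-/-* B cells the shares were 33.3%, from 1 cell with both, and 8.24%. B cells, which can make both chemokines once activated, had *Ccl3* in 2.68% (WT) and 3.41% (*Vsir-/-*) of cells, at a median depth of 3426 and 3596.5 UMIs against 4868.5 and 5921 in R1 macrophages. Cluster sizes differed between the libraries, and R1 macrophages (116 WT and 237 *Vsir-/-* cells) held 6.68% of all *Ccl4* UMIs in the WT library and 36.6% in the *Vsir-/-* library. NK cells (594 and 67 cells) held 38.3% and 16.9%.

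*Ccl5* was led by the cytotoxic lymphocytes. EM-like CD8+ T cells had 32165 CPM (31779 to 32555) in the WT and 21567 CPM (20867 to 22286) in the *Vsir-/-* library, and NK cells had 26556 and 18195 CPM. Every NK cell and every EM-like CD8+ T cell of either library had a *Ccl5* UMI, compared with 22.5% (WT) and 14.8% (*Vsir-/-*) of B cells, whose median depth was 3426 and 3596.5 UMIs against 5491.5 and 5472 in NK cells. Both leading clusters were lower in the *Vsir-/-* library, by a log2 ratio of -0.58 (-0.63 to -0.53) in EM-like CD8+ T cells and -0.55 (-0.58 to -0.51) in NK cells. The WT NKT cells had 15259 CPM, and the EM-like CD4+ T cluster had 3508 and 3406 CPM, a ratio whose interval includes 1. Among the remaining T cells, the non-EM-like CD8+ cluster stood apart with 539 CPM in the WT and 1585 CPM in the *Vsir-/-* library, 2.94-fold higher (2.70 to 3.19), although that cluster had 659 and 50 cells. *Ccl3* (3.64-fold), *Ccl4* (3.57-fold), and *Xcl1* (2.53-fold) were higher there too, so all 4 members with at least 20 UMIs passed 2-fold upward, where 9.89% of all genes did. *Ccl3* rested there on 1 cell with 5 of the 7 *Vsir-/-* UMIs, and its log2 ratio was 0.22 without the highest cell of each library. The dissociation list was higher in this cluster too, at 3296 CPM (WT) and 7627 CPM (*Vsir-/-*), and its part in the result was not tested.

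Several myeloid clusters had more *Ccl5* in the WT library. Neutrophils had 509 CPM in the WT and 20.6 CPM in the *Vsir-/-* library, and the other R2 macrophages had 504 and 67.3 CPM. A few cells held much of this. The highest pair of WT neutrophils held 345 and 273 of 1262 UMIs, and that of WT other R2 macrophages held 184 and 181 of 646. Without the highest cell of each library the levels were 372 and 13.0 CPM in neutrophils and 372 and 37.9 CPM in the other R2 macrophages. T cell transcripts followed the same order. The T cell list summed to 451 CPM in WT and 55.3 CPM in *Vsir-/-* neutrophils, and to 320.04 and 6.47 CPM in the other R2 macrophages. The NK cell list summed to 87.9 and 2.57 CPM in neutrophils. For M2-like R2 macrophages the *Ccl5* level was 665 CPM (WT) and 336 CPM (*Vsir-/-*), and the T cell list was at 310 and 40.0 CPM. The part of free RNA or of droplets with more than 1 cell in these values was not tested.

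*Xcl1* was highest in the EM-like CD4+ T cluster of both libraries, with 1453 CPM (1408 to 1498) from 4071 UMIs in WT and 771 CPM (728 to 815) from 1216 UMIs in *Vsir-/-* mice. The log2 ratio was -0.91 (-1.01 to -0.82). This cluster held 57.9% and 74.8% of all *Xcl1* UMIs, and 56.0% and 48.8% of its cells had one, against 1.75% of WT B cells. WT NKT cells had 540 CPM, and NK cells had 409 and 383 CPM, which did not part beyond counting error. A single WT NK cell held 415 of the 1537 *Xcl1* UMIs of its cluster. All clusters of R2 macrophages and neutrophils had at most 50.7 CPM in the WT and 2.57 CPM in the *Vsir-/-* library.

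The EM-like CD4+ T cluster was not uniform. A UMI of *Ncr1* or *Klrb1c*, the receptors NKp46 and NK1.1 of NK and innate-like lymphocytes, was found in 40.9% of the WT cells (200 of 489) and 12.7% of the *Vsir-/-* cells (31 of 244). They held 81.6% of the *Xcl1* UMIs of the WT cluster and 37.7% of those of the *Vsir-/-* cluster. *Cd3e* was found in 38.5% and 58.1% of them, compared with 88.6% and 91.1% of the cells without *Ncr1* or *Klrb1c* and with 11.3% and 0% of the NK cluster. Their level of *Xcl1* was 2806 CPM in the WT and 1971 CPM in the *Vsir-/-* library, and that of the cells without them was 463 and 563 CPM. The ratio was thus below 1 in the former cells (log2 -0.51, -0.65 to -0.37) and above 1 in the latter (0.28, 0.13 to 0.43). The lower summed level in the *Vsir-/-* cluster went together with the smaller share of *Ncr1* or *Klrb1c* cells.

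By coreceptor the cells split again. Cells with *Cd4* and neither *Cd8a* nor *Cd8b1* (92 WT and 76 *Vsir-/-* cells) had 159 CPM of *Xcl1* in the WT and 545 CPM in the *Vsir-/-* library, a log2 ratio of 1.78 (1.44 to 2.13), and 1.51 (1.07 to 1.97) without the highest cell of each library. The number of cells with a UMI was 9 and 16. Cells with *Cd8a* or *Cd8b1* and no *Cd4* (93 and 40 cells) had 1821 and 234 CPM, a log2 ratio of -2.96 (-3.33 to -2.60). *Ccl4* went the other way in those *Cd8a* or *Cd8b1* cells, with 805 CPM in the WT and 1962 CPM in the *Vsir-/-* library, and *Ccl5* was 5856 and 9169 CPM. The splits by *Ncr1*, *Klrb1c*, and coreceptors were chosen after the values were seen, and a cell without a UMI of a coreceptor can still express it.

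**Figure D2:**
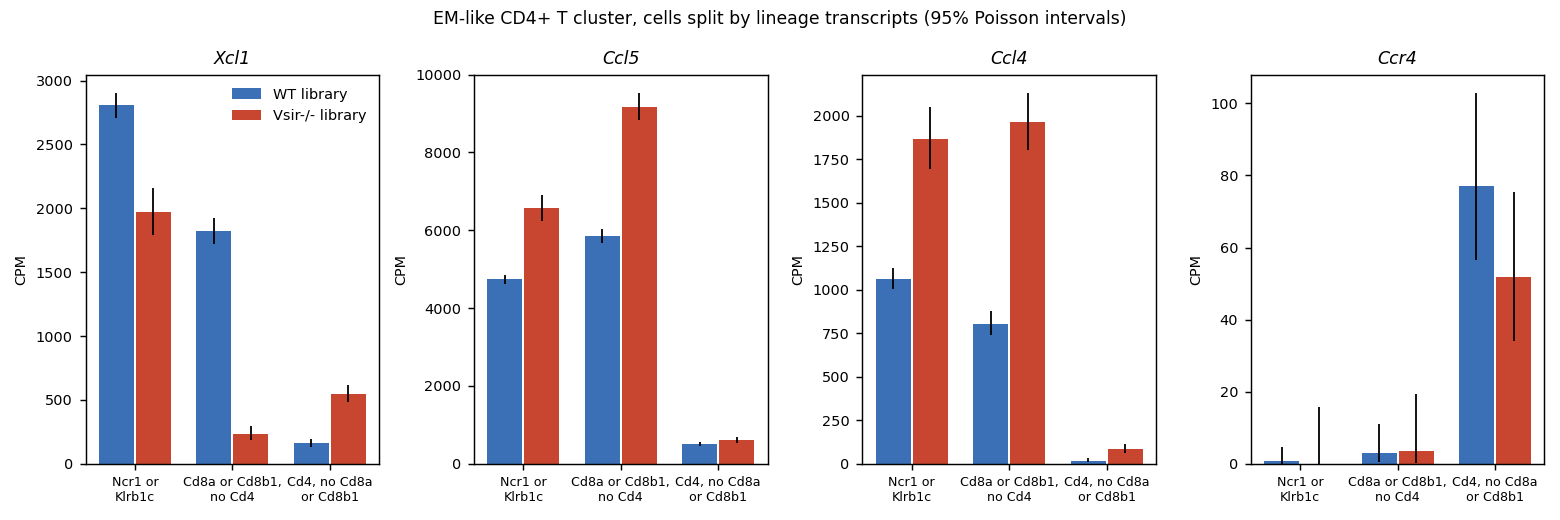
Level (CPM, bars from 0 with 95% Poisson intervals) of *Xcl1*, *Ccl5*, *Ccl4*, and *Ccr4* in cells of the EM-like CD4+ T cluster with *Ncr1* or *Klrb1c* (200 WT and 31 *Vsir-/-* cells), with *Cd8a* or *Cd8b1* and no *Cd4* (93 and 40), and with *Cd4* and no *Cd8a* or *Cd8b1* (92 and 76). *Xcl1* was higher in the *Vsir-/-* library in the last kind alone, and *Ccr4* was highest there (77.1 and 51.8 CPM); the first kind shares some cells with the others.

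In the EM-like CD4+ T cluster as a whole, *Ccl5* and *Xcl1* tended to be found in the same cells. *Xcl1* was detected in 67.8% of WT cells of the cluster with *Ccl5* (249 of 367) and 20.5% of those without (25 of 122), and in 62.2% and 21.2% of the *Vsir-/-* cells. *Cd4* had the opposite distribution. It was detected in 14.4% of WT cells with *Ccl5* and 40.2% of those without, and in 20.7% and 56.2% of the *Vsir-/-* cells.

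*Ccl1*, the ligand of CCR8, was found in very few cells, some of which held most of its UMIs. The WT library had 266 UMIs in 17 cells, of which 10 had 5 or more UMIs. The *Vsir-/-* library had 516 UMIs in 11 cells, of which 2 had 5 or more. Of the *Vsir-/-* UMIs, 503 came from these 2 cells of the EM-like CD4+ T cluster, with 317 and 186 UMIs. Both had *Cd4*, *Il2ra*, *Gata3*, and *Tnfrsf4*. The first also had 58 UMIs of *Ifng*, 135 of *Xcl1*, and 4 of *Il4*, and the second had 2 UMIs of *Foxp3*. In the WT library the highest cells held 51, 48, 35, and 31 UMIs and belonged to the proliferating and EM-like CD4+ clusters. The level of the EM-like CD4+ cluster, 44.2 CPM in the WT and 319.5 CPM in the *Vsir-/-* library (log2 2.85), therefore rested on 2 cells. ILC2s held 14 UMIs in 4 of 79 WT cells and 4 UMIs in 4 of 19 *Vsir-/-* cells.

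Among the receptors, *Ccr1*, which is shared by CCL3 and CCL5, had its highest level in neutrophils, which held 78.7% of its UMIs in the WT and 49.2% in the *Vsir-/-* library. Its level in neutrophils was 696 CPM (664 to 730.1) in the WT and 431 CPM (386 to 479.9) in the *Vsir-/-* library, a log2 ratio of -0.69 (-0.87 to -0.52), and it was found in 461 of 524 (88.0%) and 127 of 158 (80.4%) cells. By comparison, 0.842% of WT NK cells had it and 0 of 67 in the *Vsir-/-* library did, a count that allows up to 4.48% of cells with a UMI. Their median depth of 5491.5 and 5472 UMIs was above that of neutrophils (3565 and 4097). M2-like R2 macrophages had 78.8 and 66.3 CPM, and WT basophils had 289 CPM from 20 of 25 cells. R1 macrophages differed in the other direction from neutrophils, with 33.1 CPM (21.0 to 49.7) in the WT and 98.7 CPM (83.9 to 115) in the *Vsir-/-* library. Among R1 macrophages, 11 of 116 (9.48%) and 69 of 237 (29.1%) had a UMI, and with cells thinned to 1000 UMIs the shares were 2.75% and 10.8%. A 1.58 difference on the log2 scale (0.94 to 2.28) placed R1 macrophages below M2-like R2 macrophages in the WT library and above them in the *Vsir-/-* library.

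**Figure D3:**
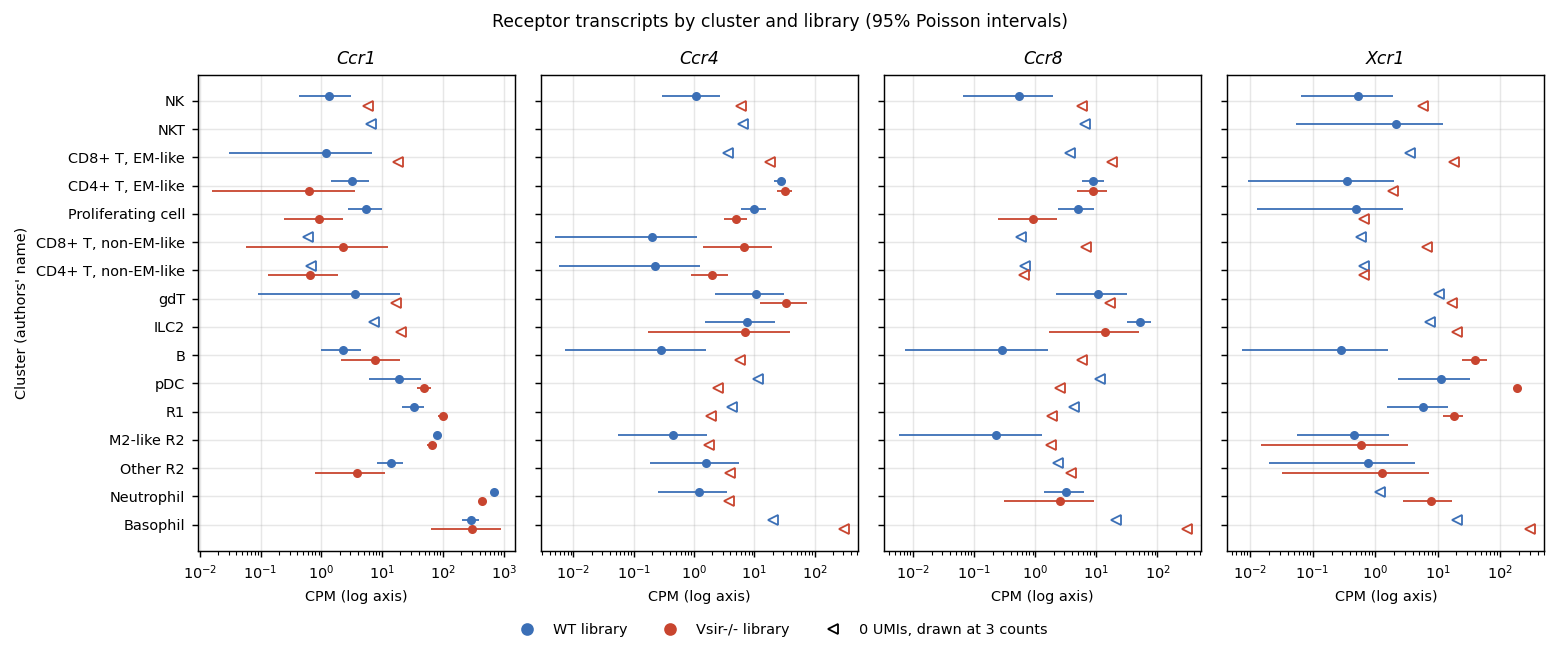
Level of *Ccr1*, *Ccr4*, *Ccr8*, and *Xcr1* (CPM, log axis) in each cluster of the WT and the *Vsir-/-* library, with 95% Poisson intervals; open triangles mark 0 UMIs, drawn at the level of 3 counts. *Ccr1* is highest in neutrophils of both libraries, and *Xcr1* is clearly above the WT library in the *Vsir-/-* pDC and B clusters.

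Most *Ccr4* UMIs lay in the EM-like CD4+ T cluster, with 76 of 116 in the WT and 50 of 91 in the *Vsir-/-* library. Proliferating cells held 20 and 22, and B cells held 1 and 0. The level in the EM-like CD4+ T cluster was 27.1 CPM (21.4 to 33.9) and 31.7 CPM (23.5 to 41.8), a ratio whose interval (0.801 to 1.69-fold) includes 1. Cells with *Ncr1* or *Klrb1c*, which held most of the WT *Xcl1*, had 1 and 0 UMIs of *Ccr4*, whereas cells with *Cd4* and no *Cd8a* or *Cd8b1* had 77.1 and 51.8 CPM. The cells with *Ccr4* (43 WT and 29 *Vsir-/-*) were compared with the other cells of the EM-like CD4+ T cluster for helper and regulatory transcripts. *Ctla4*, an inhibitory receptor of activated and regulatory T cells, was found in 20 of 43 WT cells with *Ccr4* and 55 of 446 without, and in 15 of 29 and 40 of 215 *Vsir-/-* cells. *Il17a*, the cytokine of Th17 cells, was found in 14 of 29 *Vsir-/-* cells with *Ccr4* and 8 of 215 without, and in 2 of 43 and 2 of 446 WT cells. Cells with *Ccr4* were the deeper ones, with a median of 6815 UMIs against 4786.5 (WT) and 6110 against 5753 (*Vsir-/-*). After thinning, 10 WT and 9 *Vsir-/-* cells kept a *Ccr4* UMI. *Ctla4* was then found in 10.0% and 11.1% of them, against 4.90% and 8.19% of the others, so with so few cells its contrast was not detectable at equal depth. *Il17a* was found in 4 of the 9 *Vsir-/-* cells (44.4%) and 5.60% of the others. *Foxp3* was found in 7 of 43 WT and 2 of 29 *Vsir-/-* cells with *Ccr4*, so most of them had no UMI of this gene of regulatory T cells. In γδ T cells 3 of 46 WT and 5 of 28 *Vsir-/-* cells had *Ccr4*, from 9 UMIs in all. Their *Vsir-/-* level, 33.9 CPM (12.4 to 73.7), was the highest of that library, with an interval that overlapped that of the EM-like CD4+ T cluster.

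*Ccr8* was rare, with 71 UMIs in the WT and 22 in the *Vsir-/-* library. ILC2s, innate cells that make type 2 cytokines, had the highest WT level, 52.0 CPM (32.2 to 79.5), from 21 UMIs in 16 of 79 cells, and 2 UMIs in 19 *Vsir-/-* cells. The EM-like CD4+ T cluster had 8.92 and 8.88 CPM, from 25 and 14 UMIs. The interval of their ratio ran from 0.478 to 1.99-fold, so a difference of up to about that size was not detectable at this depth. *Ctla4* was found in 8 of 11 *Vsir-/-* cells with *Ccr8* and 47 of 233 without, and in 7 of 19 and 68 of 470 WT cells. Only 4 WT cells and 1 *Vsir-/-* cell kept a *Ccr8* UMI after thinning, and 0 of them had *Ctla4*, so at equal depth this contrast was not detectable.

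*Xcr1* had 16 UMIs in the WT and 283 in the *Vsir-/-* library. The pDC cluster held 225 of the latter, in 22 of 86 cells, and its level was 190.2 CPM (166 to 217), against 11.3 CPM (2.34 to 33.1) from 3 UMIs in 1 of 21 WT cells. The ratio was 16.8-fold (5.67 to 82.0), and 15.1% of the *Vsir-/-* cells kept a UMI after thinning to 1000 UMIs. R1 macrophages had 4 UMIs in the WT and 29 in the *Vsir-/-* library, and the B cluster had 1 and 21. Neutrophils of the *Vsir-/-* library had 6 UMIs, all in 1 of 158 cells (0.633%), at a median depth of 4097 UMIs against 13776.5 in the pDC cluster.

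The cells with *Xcr1* lacked defining markers of the name pDC. Of 10 cDC1 genes, all 10 were found in the 22 *Vsir-/-* cells, and they summed to 5209 CPM, compared with 1045 CPM in the 64 cells without *Xcr1*. *Clec9a*, the receptor by which cDC1s sense dead cells, was found in 21 of 22 and 14 of 64, *Itgae* in 18 and 0, and *Tlr3* in 18 and 3. Of 10 pDC genes, *Siglech*, *Ly6d*, *Cox6a2*, *Pacsin1*, and *Spib* were at 0 in the 22 cells, and the list summed to 460 CPM against 3157 CPM. The cells without *Xcr1* were mixed as well. Among these 64 cells *Siglech* was found in 20, and *Cd209a*, a gene of the second class of conventional dendritic cells (cDC2), in 34. The cDC2 list summed to 1443 CPM there and 11.7 CPM in the cells with *Xcr1*. The WT cluster, with 21 cells, had 1 cell with *Xcr1*, and that cell held 42 UMIs of the cDC1 list.

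The B cluster had a like split and R1 macrophages did not. In the 8 *Vsir-/-* B cluster cells with *Xcr1*, the cDC1 list summed to 2464 CPM and the B cell list to 297 CPM, against 457 and 4112 CPM in the other 80 cells. In the 20 *Vsir-/-* R1 macrophages with *Xcr1*, the cDC1 list summed to 846 CPM and the macrophage list to 15172 CPM, close to the 758 and 15304 CPM of the 217 cells without it. The cDC2 list was lower in the cells with *Xcr1*, at 476 CPM (385 to 582) against 831 CPM (784 to 880).

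**Figure D4:**
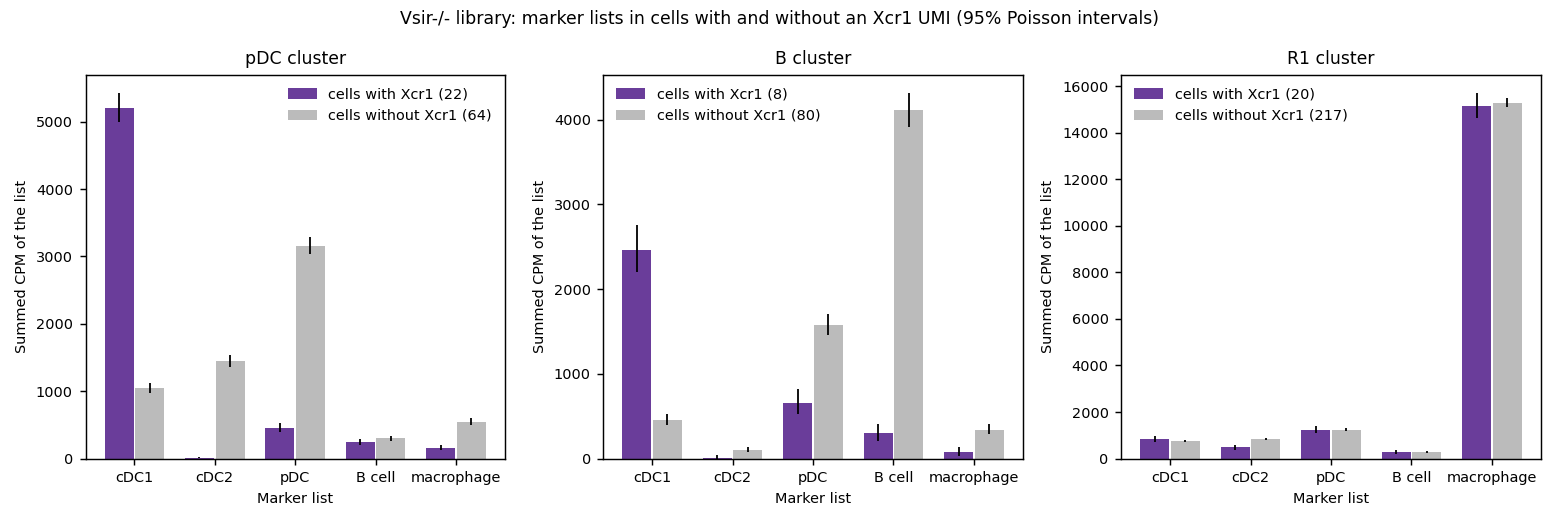
Summed level (CPM, bars from 0 with 95% Poisson intervals) of lists of cDC1, cDC2, pDC, B cell, and macrophage genes in *Vsir-/-* cells with and without an *Xcr1* UMI, in the pDC, B, and R1 clusters. Cells with *Xcr1* have the higher cDC1 bar in the pDC cluster (5209 against 1045 CPM) and the B cluster (2464 against 457 CPM). In R1 macrophages the cDC1 bars are alike (846 against 758 CPM), and the cDC2 bar is lower in cells with *Xcr1* (476 against 831 CPM).

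The members were then counted against all genes of the same cluster, with 2-fold as the limit, at least 20 UMIs over both libraries, and a count of 0 raised to 3. In the EM-like CD4+ T cluster 1 of 7 members, *Ccl1*, passed upward, where 10.4% of all genes did, and the median log2 ratio of the 7 was -0.01. In EM-like CD8+ T cells *Ccl3* and *Xcl1* passed downward and *Ccl4* and *Ccl5* did not, where 12.6% of all genes passed downward. The NK cell list was lower in that cluster as well, with 2098 CPM in WT and 404 CPM in *Vsir-/-* cells, and its part in the result was not tested. In R1 macrophages *Ccr1* and *Xcr1* passed upward, where 14.3% of all genes did, and *Ccl5* downward, where 8.67% did. The last call came from 1 WT cell with 147 of the 183 *Ccl5* UMIs. Without the highest cell of each library the level was 52.7 CPM (WT) and 108 CPM (*Vsir-/-*), past the limit upward (log2 1.04). *Ccl5* and *Xcl1* passed downward in neutrophils, where 11.9% of all genes did. A single WT neutrophil held 51 of the 70 *Xcl1* UMIs. In the other R2 macrophages *Ccl5*, *Xcl1*, and *Ccr1* passed downward (10.1% of all genes), and in M2-like R2 macrophages *Xcl1* did (8.17%). *Xcl1* had 65 WT and 1 *Vsir-/-* UMIs in the former and 96 and 1 in the latter. The T cell list was lower in these 3 clusters too, and its part was not tested. *Ccr1* had 18 and 3 UMIs, 8 of them in 1 WT cell, and too few were left for a call without the highest cells. In the pDC cluster *Ccl4*, *Xcr1*, and *Ccr1* passed upward, where 13.2% of all genes did, and *Ccl3* and *Ccl5* downward, where 9.5% did. Without the highest cells the call for *Ccl3* ended (log2 -0.26), and *Ccl5*, of which 1 WT cell held 234 of 253 UMIs, was 77.6 and 13.7 CPM. The T cell list was 559 and 26.2 CPM and the NK cell list 291 and 5.07 CPM in this cluster, and their part was not tested. All 6 members with enough UMIs in proliferating cells passed downward, where 8.98% of all genes did, in a cluster whose *Vsir-/-* cells mostly lacked T cell transcripts. Of these, *Ccr4* (20 WT and 22 *Vsir-/-* UMIs) was just past the limit (log2 -1.007, -1.95 to -0.06). Its call ended without the highest cell of each library (-0.90). *Xcr1* passed upward in the B cluster (15.8% of all genes). The 8 *Vsir-/-* cells with *Xcr1* there had 297 CPM of the B cell list, against 4112 CPM in the other 80. A single cell held 10 of the 21 *Vsir-/-* UMIs, and without the highest cells too few UMIs were left for a call. *Ccr8* passed downward in ILC2s (15%), from 2 *Vsir-/-* UMIs and with an interval (log2 -5.06 to 0.11) that includes 0. *Ccl5* passed downward in the non-EM-like CD4+ T cluster (10.7%), whose *Vsir-/-* cells mostly lacked T cell transcripts too. The T cell list was 5498 CPM (WT) and 399 CPM (*Vsir-/-*) there, and its part in the result was not tested. Of 3 members in basophils and 1 in γδ T cells, 0 passed in either direction, where 24.5% and 13.8% of all genes did. The *Vsir-/-* basophils were 2 cells. Without the highest cell of each library the log2 ratios there were past the limit, at -2.59 for *Ccl3*, -1.10 for *Ccl4*, and 1.61 for *Ccr1*. The last had 0 *Vsir-/-* UMIs, raised to 3. Of the 31 calls over all clusters, 25 were the same without the highest cell of each library.

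**Figure D5:**
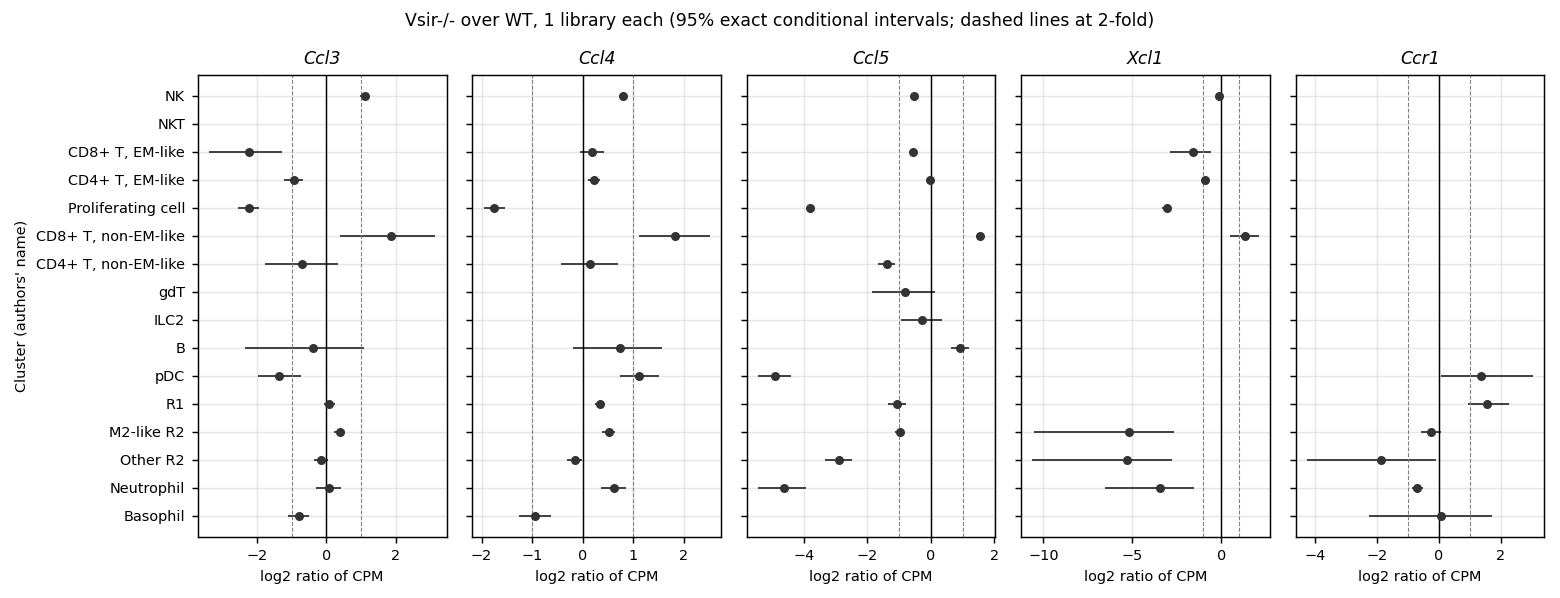
Log2 ratio of CPM, *Vsir-/-* over WT, for *Ccl3*, *Ccl4*, *Ccl5*, *Xcl1*, and *Ccr1* in each cluster with at least 20 UMIs and a UMI in each library, with 95% exact conditional intervals; dashed lines mark 2-fold. *Ccl3* is past 2-fold upward in NK cells (1.10) and downward in EM-like CD8+ T cells (-2.24), and *Ccl5* is below 0 in neutrophils (-4.63).

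Other chemokine genes were taken from a list of 26 further ligands and 16 further receptors. Counts past the limit are given for R1 macrophages, M2-like R2 macrophages, NK cells, and neutrophils. In R1 macrophages 11 of the 17 ligands with at least 20 UMIs passed 2-fold upward and 1 downward, where 14.3% of all genes passed upward and 8.67% downward. Their median log2 ratio was 1.83, against 0.01 for all genes. Of those upward, *Ccl8*, *Ccl17*, *Ccl24*, *Cx3cl1*, *Cxcl1*, and *Cxcl14* had 0 WT UMIs and reached the minimum through the *Vsir-/-* library alone. Their upward calls followed from the minimum and from raising 0 to 3, so the count and the median depend on the filter. In the same cells the kidney tubule list was 114 CPM (WT) and 3091 CPM (*Vsir-/-*), and *Ptprc* was detected in 94.8% and 78.1%, and their part in the result was not tested. *Ccl2*, which draws monocytes through CCR2, was 18.7 CPM in the WT and 420.3 CPM in the *Vsir-/-* library. *Ccl12*, another CCR2 ligand, was 363 and 863 CPM, and *Cxcl10*, a ligand of CXCR3, was 20.1 and 108 CPM. *Ccl3* and *Ccl4* in the same R1 cells had log2 ratios of 0.08 and 0.34. M2-like R2 macrophages had 10 of 15 ligands past the limit upward and 0 downward, where 8.07% and 8.17% of all genes passed, and *Cxcl2*, which draws neutrophils, was 321 and 794 CPM. Here too *Ccl17*, *Cxcl1*, and *Cxcl14* had 0 WT UMIs and reached the minimum through the *Vsir-/-* library alone. Of 9 further receptors there, 0 passed upward and 5 downward. In neutrophils 0 of 8 receptors passed upward and 5 downward. In R1 macrophages 2 of 6 passed upward and 2 downward, and in NK cells 1 of 7 upward and 2 downward. *Ccr7*, which guides lymphocytes and mature dendritic cells to lymph nodes, was 49.9 and 4.78 CPM in M2-like R2 macrophages. It was lower in R1 macrophages (83.5 and 0.62 CPM), NK cells (23.4 and 1.97 CPM), and neutrophils (30.2 and 12.9 CPM) as well. Lists of other cell types were lower in M2-like R2 macrophages too. The T cell list was 310 CPM (WT) and 40.0 CPM (*Vsir-/-*), the B cell list 649 and 127 CPM, and the neutrophil list 4337 and 244 CPM. The macrophage list was 943 and 2224 CPM, and the part of these differences in the result was not tested. In NK cells 4 of 8 ligands passed upward and 3 downward, where 9.07% and 7.6% of all genes did. Those upward were *Ccl7* (0 WT and 20 *Vsir-/-* UMIs), *Ccl12* (3 and 30), *Cxcl2* (37 and 23), and *Cxcl10* (43 and 22). Those downward were *Ccl6* (20 WT and 1 *Vsir-/-* UMIs), *Ccl9* (271 and 13), and *Ccl27a* (45 and 2). The intervals of *Ccl6* (log2 -6.80 to 1.21) and *Ccl27a* (-4.69 to 0.34) include 0. Macrophage genes rose in the NK cluster too, their list going from 17.3 (WT) to 138 CPM (*Vsir-/-*). The part of macrophage RNA in the NK counts was not tested. In neutrophils 0 of 7 ligands passed upward and 2 downward, where 9.74% and 11.9% of all genes did. Higher ligands were not particular to macrophages. Their median log2 ratio was 4.93 in the B, 3.69 in the non-EM-like CD4+ T, and 2.07 in the proliferating cluster. It was 2.01 in the pDC cluster and 1.47 in the other R2 macrophages. All genes had -0.08, 0.92, 0.53, -0.02, and -0.07 in these clusters. The medians cover 9, 13, 16, 9, and 7 ligands. Some ligands had 0 WT UMIs and met the minimum through the *Vsir-/-* library alone. Among them were *Ccl17* and *Ccl22* in the B and pDC clusters. *Cx3cl1* and *Cxcl13* were among them in the non-EM-like CD4+ T and proliferating clusters, whose *Vsir-/-* cells mostly lacked T cell transcripts. The part of these limits in the medians was not tested. The ligand median was below 0 in basophils, ILC2s, neutrophils, EM-like CD4+ T cells, and both CD8+ T clusters.

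Over the 29 combinations of cluster and library with at least 20 cells, the pattern of each member was compared with those of 11239 genes on the scale of log2(CPM + 10). These points share libraries, depth, and free RNA, so the correlations are descriptive. *Ccl3* and *Ccl4* were most like each other (Pearson r = 0.94), ahead of *Fcer1g* (0.84) and *Tyrobp* (0.83) for *Ccl3* and of *Efhd2* (0.83) and *Fcer1g* (0.80) for *Ccl4*. *Ccl5* was most like *Klre1* (0.94), *Nkg7* (0.92), and *Klrc1* (0.92), and *Xcl1* most like *Klrc2* (0.90), *Cd160* (0.89), and *Klrc1* (0.88), all known from NK cells and cytotoxic T cells. *Xcr1* was most like *Clec9a* (0.87), *Ccl17* (0.81), and *Flt3* (0.81), and *Ccr1* most like *Nlrp3* (0.93), *Hk3* (0.92), and *Ptgs2* (0.90). *Ccl1* was most like *Tnfrsf4* (0.82), *Ctla4* (0.69), and *Ccr4* (0.69). *Ccr4* was most like *Crmp1* (0.89), *Tasp1* (0.85), and *Podnl1* (0.82), and *Ccr8* most like *Bmp7* (0.88), *Il2ra* (0.85), and *Il1rl1* (0.84). By Spearman's rho the gene most like a member was no longer among the leading 3 for 6 of the 9 (*Ccl5*, *Ccl1*, *Xcr1*, *Ccr1*, *Ccr4*, and *Ccr8*), and *Ccr8* was then most like *Ccl1* (0.69), *Ccr4* most like *Tnfsf11* (0.81), and *Ccl1* most like *Snrpc* (0.69). Ligands and their receptors had unlike patterns, with r of -0.36 for *Xcl1* and *Xcr1*, -0.38 for *Ccl5* and *Ccr1*, and 0.44 for *Ccl3* and *Ccr1*, whereas *Ccl1* and *Ccr8* had 0.61.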

How the data were processed

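Kidney cells of 1 WT and 1 *Vsir-/-* library were profiled by droplet scRNA sequencing. According to the submitters' processing notes, the authors used Cell Ranger 3.1.0, R 4.0.3, and Seurat 3.2.3, with mm9 as the build. The deposited values are whole-number UMI counts per gene and cell, and the authors' table gives the library and cluster of each cell, with deposited percent values of mitochondrial UMIs of at most 10%. A further 2 columns of coordinates were not used. Any doublet removal is not given in the sources used here, and none was done.

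Counts were summed over the cells of a cluster in a library and divided by their total to give CPM. Poisson, Clopper-Pearson, and exact conditional intervals (95%) cover counting error only. A count of 0 allows up to 3 counts. Cells were thinned to 1000 UMIs (seed 20), which left out 167 WT and 78 *Vsir-/-* cells. TMM factors (edgeR 4.0.16, R 4.3.3) served as an alternative. The other steps were run in Python 3.11.15 (scipy 1.17.1, numpy 2.4.6, pandas 2.3.3, matplotlib 3.10.9), and the ratio was tested on simulated data. The members and the gene lists were chosen with earlier results of these data known. All 9 members are named, with genes of the lists where a list is described and, for each member, the 3 genes most like it.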

Additional observations from a re-analysis of the deposited data

How the results depend on the processing

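No paired analysis was possible because each genotype has 1 library. Of 93 alternative values for the 9 ratios in leading clusters, 63 stayed within the counting interval (7 with the other sign), 25 left it with the same sign, and 5 left it with the other sign. The log2 ratio of *Xcl1* in the EM-like CD4+ cluster (-0.91) was 1.78 in cells with *Cd4* and no *Cd8a* or *Cd8b1*, 0.28 in cells without *Ncr1* or *Klrb1c*, and -0.51 in cells with either, alternatives chosen after seeing the data. In the same 3 kinds of cells, *Ccl1* (2.85) gave 6.17, 3.82, and -3.99, the last from 1 *Vsir-/-* UMI. In the first kind *Ccr4* (0.23) gave -0.57 and *Ccr8* (-0.01) gave 1.33. With cells thinned, the ratios were 0.95 for *Ccl3*, 0.99 for *Ccl4*, -0.33 for *Ccl5*, 3.36 for *Ccl1*, -0.79 for *Xcl1*, and -0.96 for *Ccr1*. As UMIs per cell, they were 1.36, 1.06, and -0.29 for *Ccl3*, *Ccl4*, and *Ccl5* and -0.74 for *Xcl1*. With cells weighted equally, they were 1.003 for *Ccl4*, -0.36 for *Ccl5*, 3.38 for *Ccl1*, and -0.80 for *Xcl1*. Without the highest cell of each library, *Ccl5* gave -0.60 and *Ccl1* gave 2.13. That alternative, added for the other clusters after seeing the data, turned *Ccl5* in R1 macrophages (1.04 from -1.07) and B cells (-0.67 from 0.92) and *Ccl4* in the EM-like CD4+ cluster (-0.0103 from 0.23). It ended 6 of 31 calls past 2-fold and made 7 others. With at most 5% mitochondrial UMIs, *Ccl5* gave -0.49 and *Xcl1* gave -0.70. In cells with *Ptprc*, *Ccl1* gave 1.42 and *Xcl1* gave -1.07. *Ccl5* gave -0.58 without mitochondrial, ribosomal, and tubule genes in the denominator and -0.60 with TMM. With at least 10 UMIs, the share of genes past 2-fold was 44.7% in basophils and 21.5% in γδ T cells (24.5% and 13.8% with 20), and 13 other clusters stayed within 1.5 times. Beyond the smaller set of cells, the cause was not tested. Depth limits *Ccr8* and *Ccr4*, with 93 and 207 UMIs in all, and *Xcr1* in the WT library.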
